A study of Mus musculus with 4 samples.

Results

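Keratin genes and the genes of keratin-associated proteins (Krtap) were described from the genome annotation of a mouse series on RNA polymerase I (Pol I). The assay was CUT&Tag, which places sequencing adapters next to an antibody-bound protein. Members were the gene symbols on the assembled chromosomes that read Krt followed by a number (with at most 1 lower-case letter), or Krtap followed by a number. The rule found 110 of 26125 gene symbols, with 117 transcript rows. They were 54 keratin genes and 56 Krtap genes, and 109 of the 110 had a coding part. The libraries came from C64 mouse embryonic stem cells, 2 without treatment (control) and 2 given 500 nM auxin for 6 h, all with the same Pol I antibody. Auxin is a plant hormone that triggers the breakdown of proteins fused to a matching degron tag. No tagged protein is named in the sample labels. Separate cultures are not stated for the replicates. Values per library were not analysed here, their depth is unknown, and every value given here is a coordinate, a length or a sequence without replicate error. Genes of a cluster are related copies and no independent replicates, so classes are compared by counts, medians and ranges, without p-values.

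Keratins are the intermediate filament proteins of epithelia. A filament is built from pairs of a type I (acidic) and a type II (basic to neutral) keratin, each with a central coiled-coil rod between a head and a tail of variable length. Simple epithelia are known for Krt8 with Krt18, the basal epidermis for Krt5 with Krt14 and the suprabasal epidermis for Krt1 with Krt10. In the hair shaft, hair keratins are embedded in a matrix of Krtap proteins, which are rich in cysteine or in glycine and tyrosine. Type I genes are taken here as the 27 Krt genes of chromosome 11, and type II genes as the 26 Krt genes of chromosome 15 other than Krt18. Krt18 encodes a type I keratin but lies on chromosome 15, and it is given separately.

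The 3 classes differed in gene architecture. Type I genes had a median of 8 exons (range 6 to 8), type II genes 9 (range 5 to 9), and all 56 Krtap genes had 1. Among all 20992 genes with a coding part, 10.3% had 1 exon and the median was 7 exons. Type I genes spanned a median of 5554 bases (2812 to 15148), type II genes 8040 bases (4271 to 21848) and Krtap genes 833 bases (304 to 1891), against 16278 bases for all coding genes. The spans of the keratin classes overlapped widely, whereas the longest Krtap gene, Krtap16-1 at 1891 bases, was shorter than the shortest keratin gene, Krt16 at 2812 bases. The median coding length was 1359 bases in type I (885 to 2232), 1596 in type II (516 to 3207) and 504 in Krtap genes (174 to 1509). The 15 genes of other intermediate filament proteins in the list used here, such as Vim (vimentin) and Lmna (lamin A/C), had a median of 8 exons, a span of 9865 bases and a coding length of 1767 bases. Of 12 listed partners of keratin filaments in desmosomes, the cornified envelope and the hair follicle, the 11 with a row (all but Flg) had a median of 14 exons, a span of 28935 bases and a coding length of 4800 bases.

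**Figure D1:**
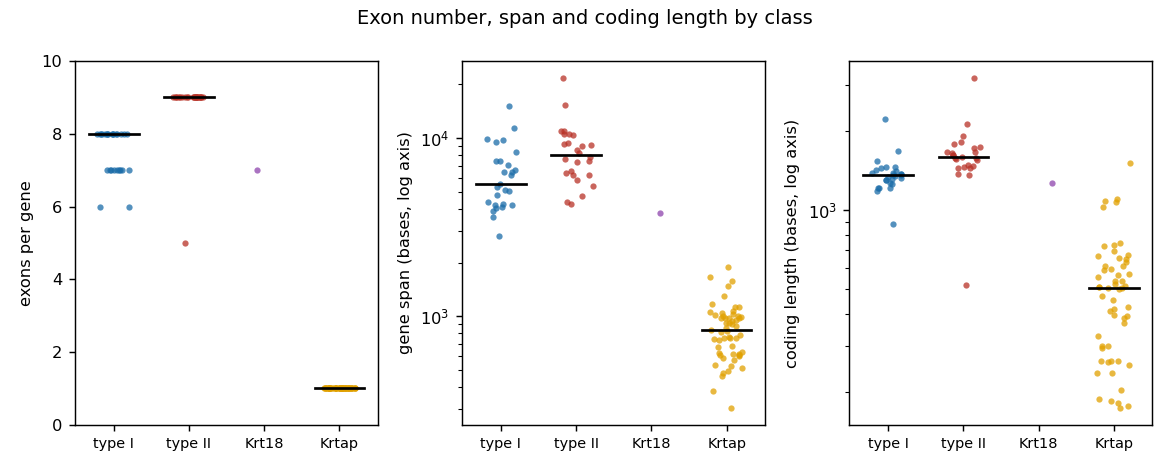
Exon number, gene span and coding length of each member (points), by class, with the class median as a black line for classes of more than 1 gene. Spans and coding lengths are in bases on log axes, Krt74 has no coding length, and the Krtap genes lie at 1 exon with spans of 304 to 1891 bases.

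Within each keratin class, a few genes departed from the common structure. Of the type I genes, 16 had 8 exons, 9 had 7 and 2 had 6. The 9 genes with 7 exons were exactly the 9 type I genes of the hair shaft list (Krt31, Krt32, Krt33a, Krt33b, Krt34, Krt35, Krt36, Krt39 and Krt40). The 2 genes with 6 exons were Krt19, a simple epithelial keratin without the usual tail, and Krt222, whose coding part of 885 bases was the shortest of the class. In type II, 25 of 26 genes had 9 exons. The exception was Krt88, with 5 exons and 516 coding bases. Krt74, an inner root sheath keratin in other mammals, had 9 exons but no coding part, and the RefSeq gene table classes it as a transcribed pseudogene. Krt18 had 7 exons, a span of 3811 bases and 1272 coding bases, and so matched the hair shaft group of type I in exon number.

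Several internal coding exons of the keratin genes were almost invariant in size. In type I genes, coding exon 2 held 83 bases, coding exon 3 held 157 and coding exon 4 held 162 in 26 of 27 genes each, and coding exon 5 held 126 bases in 25 of 27. In type II genes with 9 coding exons, exons 3 to 7 held 61, 96, 165, 126 and 221 bases in 24 of 24 genes. The run of 83, 157, 162 and 126 coding bases was present in 25 type I genes, and in 0.119% of all coding genes, which are these same 25 genes with 0 others. Its first pair, 83 and 157, stood in 26 type I genes, Krt18 and 0.143% of coding genes, and its last pair, 162 and 126, in 25 type I genes and 0.157% of coding genes. The run of 61, 96, 165, 126 and 221 was also found in 0.119% of coding genes, namely 24 type II genes and Gm5414, which lies inside the type II cluster and is named here after its values were seen. Krt222, the type I gene outside the pattern, had coding exons of 96, 129, 221, 77, 133 and 229 bases, and Krt23 differed by 1 codon, with 123 in place of 126 bases in coding exon 5.

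**Figure D2:**
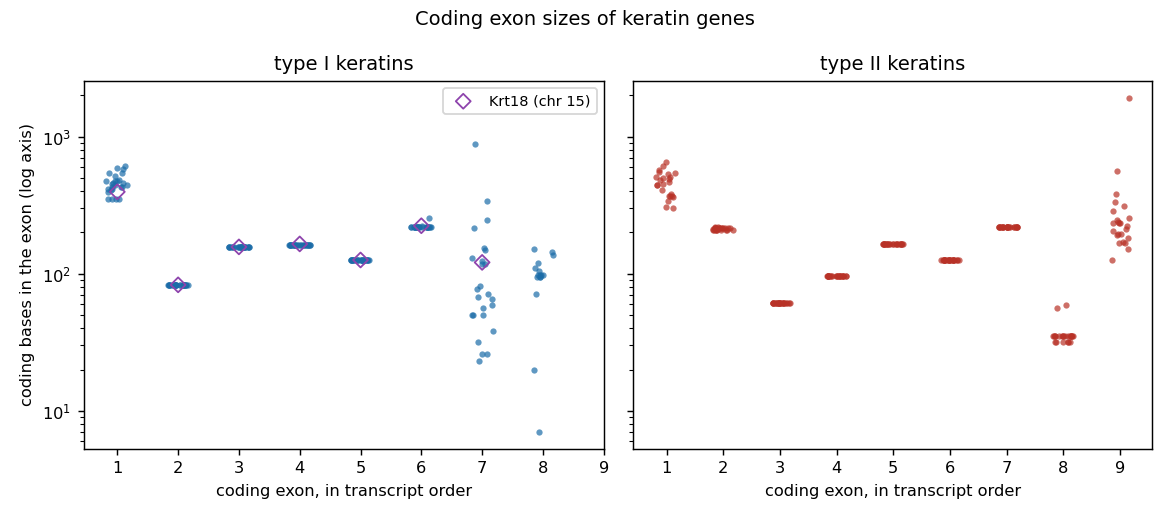
Coding bases of each exon (log axis) by its order in the transcript, for type I genes with Krt18 as open diamonds (left) and type II genes (right), 1 point per gene. Krt222 and Krt88 are not drawn, Krt74 has no coding exons, and the points at exons 2 to 6 in type I and 2 to 8 in type II lie in narrow bands while the end exons spread widely.

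The 2 classes matched in part of their exon sizes. Coding exon 2 did not match, with 83 bases in 26 of 27 type I genes and 209 to 221 in type II. Coding exons 3 and 4 of type II summed to 157 bases in 24 of 24 genes, the size of coding exon 3 in type I. The next exon held 165 bases in type II and 162 in type I, a difference of 1 codon, and the exon after it held 126 in both. The following exon held 221 bases in all 24 type II genes and in 18 of 27 type I genes. Intron phases were also regular. Counted as the coding bases before an intron modulo 3, the type II phases were 0, 2, 0, 0, 0, 0, 2 and 1 in 24 of 24 genes. In type I, 15 genes had 0, 2, 0, 0, 0, 2 and 1, and the 9 hair shaft genes had the same phases without the last. Krt10, the suprabasal epidermal keratin, ended in phase 2 in place of 1.

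Krt18 carried the type I pattern although it lies among type II genes. Its coding exons held 396, 83, 157, 165, 126, 224 and 121 bases. Coding exons 2, 3 and 5 had the common type I sizes, while exon 4 was 1 codon longer than the 162 bases of type I, and exon 6 was 1 codon longer than the common 221 bases. Its intron phases, 0, 2, 0, 0, 0 and 2, were those of the type I hair shaft genes. Krt8, its neighbour and filament partner, had the type II run of 61, 96, 165, 126 and 221 bases.

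Other intermediate filament genes shared parts of the pattern. Vim, Des (desmin, of muscle) and Gfap (of astrocytes) each had coding exons of 61, 96, 162, 126 and 221 bases in a row. This is the type II run with 162 in place of 165. Its 162 and 126 are also the sizes of coding exons 4 and 5 in type I, a pair found in 33 coding genes. Exons of 61 and 96 bases in a row occurred in 43 coding genes (0.205%), among them 24 type II genes and 5 of the 15 other intermediate filament genes (Vim, Des, Gfap, Prph and Bfsp1). The rest included Gm5414, Iffo1, Iffo2, Slc18a1 and Ubr7. This pair occurred in 0 type I genes. The undivided exon of 157 bases was present in 3.88% of coding genes. Among these were 26 type I genes, Krt18, the lamin genes Lmna, Lmnb1 and Lmnb2, and Bfsp2, a lens filament gene. Bfsp2 was the nearest to type I, with 83, 157, 162, 132 and 221 bases in coding exons 2 to 6. The pair 126 and 221 was found in 0.248% of coding genes, among them 17 type I genes, 24 type II genes and 7 of the 15 other intermediate filament genes. The neurofilament genes Nefl, Nefm and Nefh, and Ina, Nes and Synm, showed none of these runs and had 3 or 4 exons.

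Some size differences in single coding exons were shared by neighbours, and others were not. In type I, coding exon 6 held 218 bases in 6 genes, and these were neighbours, from Krt24 through the inner root sheath keratins Krt25, Krt26, Krt27 and Krt28 to Krt10. The next 14 type I genes, from Krt12 to Krt15, all held 221 bases. They were followed by Krt19 with 255 (its last coding exon), Krt9 with 224 and 4 genes from Krt14 to Krt42 again with 221. In type II, coding exon 2 held 209 bases in 9 genes and 215 in 12. A stretch of 7 neighbours with 209 bases ran from Krt87 to Krt90, leaving out Krt88, and a stretch of 10 with 215 bases ran from Krt75 to Krt77, leaving out Krt74. Elsewhere the sizes alternated, with 209 in Krt80, 212 in Krt7, 221 in Krt76, 215 in Krt4, 218 in Krt79, 215 in Krt78 and 209 in Krt8. Coding exon 8 held 32 bases in the 6 type II genes of the hair shaft list (Krt81, Krt82, Krt83, Krt84, Krt86 and Krt87), 35 bases in 16 genes, 56 in Krt80 and 59 in Krt8.

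The first coding exon and the part after the middle exons carried most of the length differences among keratins. Protein sequences were not used, so exons were not assigned to head, rod or tail. In the 25 type I genes with at least 7 coding exons, the middle part (coding exons 2 to 6) ranged only from 746 to 752 bases, while the first coding exon ranged from 348 to 612 and the part after exon 6 from 82 to 904 bases. In type II, the middle part (coding exons 2 to 7) ranged from 878 to 890 bases, the first exon from 300 to 648 and the part after exon 7 from 181 to 1957 bases. The 4 hair keratins Krt33a, Krt33b, Krt34 and Krt31, which are neighbours, each had a first coding exon of 348 bases. In type I, the part after exon 6 was longest in Krt9, the keratin of palm and sole epidermis, with 884 bases in coding exon 7 and 20 in exon 8. Krt10 followed with 339 and 7 bases in these exons. In type II, the part after exon 7 was longest in Krt78, whose last coding exon held 1922 bases and brought the coding part to 3207 bases. Next came the epidermal keratins Krt2, with 557 bases in that exon, and Krt1, with 380.

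Introns varied more in size than the middle coding exons. The median of type I introns ranged by position from 94 to 914 bases. Intron 4 had the lowest median, 94 bases, but still ranged from 75 to 677 bases, with the highest value in Krt9. In type II genes with 9 coding exons, medians by position ranged from 329 to 1169 bases. The most alike pair of keratin genes by intron length was Krt6a and Krt6b, which are induced in wounded epidermis. In this pair, 5 of 8 introns agreed within 2 bases. The hair keratins Krt81, Krt83 and Krt86 agreed pairwise in 3 of 8 introns. These were the only pairs with more than 1 such intron among 300 type II pairs with equal intron number, and none of 157 type I pairs had more than 1. The Krt6 pair, in order from the 5' end, had introns of 564, 168, 157, 128, 416, 140, 443 and 104 bases in Krt6a, and of 566, 322, 157, 126, 416, 140, 207 and 96 bases in Krt6b.

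The members fell into 6 groups when neighbours at most 500 kb apart were joined. The largest was on chromosome 11 (chr11:99232761-100269951, 1037 kb), with 27 type I and 23 Krtap genes. Its order was 12 type I genes from Krt222 to Krt40, then 23 Krtap genes from Krtap3-3 to Krtap17-1, then 15 type I genes from Krt33a to Krt42. The Krtap genes thus split the type I genes into 2 blocks of 310460 and 258753 bases, and the hair shaft genes stood on both borders, with Krt39 and Krt40 before the Krtap genes and Krt33a to Krt36 after them. The chromosome 15 group (chr15:101348315-102032026, 684 kb) held the 26 type II genes from Krt80 to Krt8, with Krt18 at its end, and no Krtap gene. Krtap genes made up the other groups, with 24 on chromosome 16 (chr16:88610709-89571183, 960 kb), 5 on chromosome 7 (chr7:142174532-142304503) and 3 on chromosome 10 (chr10:77720586-77837251). A single gene, Krtap28-13, stood on chromosome 1 (chr1:83060930-83061921).

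**Figure D3:**
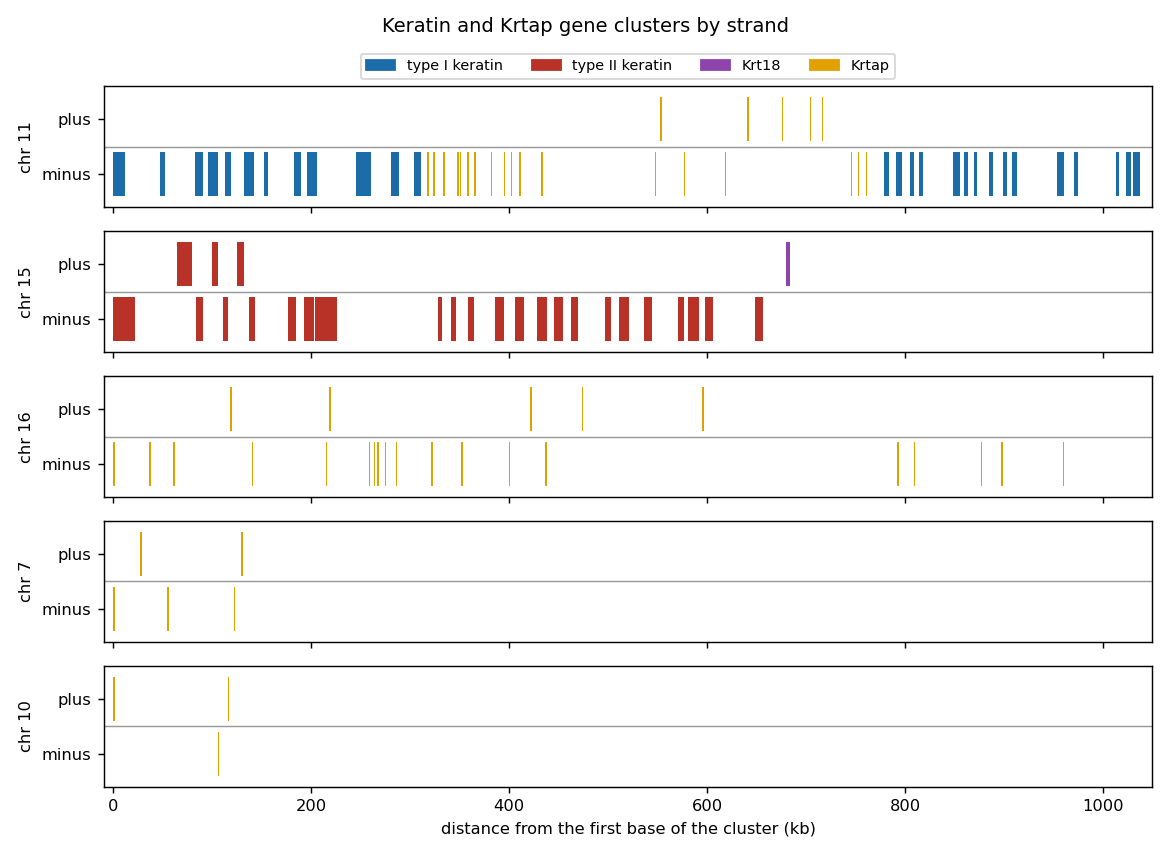
Members of the 5 groups with more than 1 gene, drawn by distance from the first base of the group (kb), with the plus strand above and the minus strand below the line. Boxes are gene spans, with a least drawn width of 1.5 kb, and the chromosome 11 panel shows 23 Krtap genes between 12 and 15 type I genes.

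Genes of the same known tissue stood next to each other in several cases, with neighbours counted among the members only. The inner root sheath keratins were adjacent in both classes, as Krt25, Krt26, Krt27 and Krt28 on chromosome 11 and as Krt71, Krt74, Krt72 and Krt73 on chromosome 15. The suprabasal type II genes Krt2, Krt1 and Krt77 were neighbours, whereas the type I genes of that list, Krt10 and Krt9, stood apart, in different blocks. Also neighbours were Krt75, Krt6b and Krt6a, known from the hair follicle and stressed epidermis, and their type I counterparts Krt16 and Krt17. Krt75 and Krt6b were 102118 bases apart, however, with the coding non-member Gm5414 and non-member pseudogenes between them. Type II hair shaft genes from Krt87 to Krt82 were interrupted by Krt88 as the only member, and the non-member pseudogene Gm6042 lay between Krt83 and Krt84. Of the simple epithelial genes, Krt20 and Krt23 were neighbours on chromosome 11, as were Krt8 and Krt18 on chromosome 15, while Krt19 and Krt7 stood apart from these. Krt15 and Krt14 of the basal layer were not adjacent either. Of the mucosal and corneal keratins, Krt76 and Krt4 were neighbours, while Krt78, Krt12 and Krt13 stood apart. All members of these keratin lists had a row except Krt85 of the hair shaft list, which was not analysed here.

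Strand was nearly uniform among keratins and less so among Krtap genes. All 27 type I genes and 23 of 26 type II genes lay on the minus strand, against 50.1% of all coding genes. The 3 type II genes on the plus strand, Krt7, Krt88 and Krt86, lay at the Krt80 end, between minus-strand genes, and the next 20 genes, from Krt83 to Krt8, were all on the minus strand. Krt18 lay on the plus strand. It and Krt8 (chr15:101996711-102004342) were divergent, with 23873 bases between their 5' ends. Of the Krtap genes, 41 of 56 were on the minus strand, with 18 of 23 on chromosome 11, 19 of 24 on chromosome 16, 3 of 5 on chromosome 7 and 1 of 3 on chromosome 10. On chromosome 11 the plus-strand Krtap genes were Krtap4-9 and the neighbours Krtap9-1, Krtap31-1, Krtap31-2 and Krtap9-5.

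Spacing differed between the stretches. The median distance between neighbours was 15396 bases in the first type I block, 7450 in the second, 9634 among type II genes, 11790 among Krtap genes of chromosome 11 and 30039 among those of chromosome 16. The closest neighbours were Krt90 and Krt75, 392 bases apart, followed by Krtap1-5 and Krtap1-4 at 1532 bases. The widest distance on chromosome 16 was 196632 bases, between Krtap20-2 and Krtap21-1, and on chromosome 11 it was 114053 bases, between Krtap4-6 and Krtap4-8. On chromosome 15 it was 102118 bases, between Krt75 and Krt6b. Members filled 33.4% of the chromosome 15 group, 18.8% of the chromosome 11 group and 1.7% of the chromosome 16 group. Only members were counted in these distances and shares, and coding non-member genes lay within the widest distances on chromosomes 11, 15 and 16.

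Genes outside the name rule lay between the members, and on the Krtap stretches they looked alike in structure. On chromosome 11, 14 of the 15 non-member loci had 1 coding exon, such as Gm11938 and Gm11937, with 396 coding bases each. Both lay near Krtap2-4, which also has 396 coding bases. On chromosome 16, 9 of 11 non-member loci had 1 coding exon, on chromosome 10 all 10 had, and on chromosome 7, 2 of 3 had. Gm10228 and 1110025L11Rik on chromosome 16 each had 237 coding bases, as did the members Krtap6-1 and Krtap6-5. The RefSeq gene table lists Krtap12-4 as an older name of Gm10272, beside the chromosome 10 group. It also lists Krtap13-1 as an older name of 2310057N15Rik (chr16:88773181-88774206). The member that now has the symbol Krtap13-1 is another locus (chr16:88728862-88729611). The counts of Krtap genes given here therefore depend on the name rule. On chromosome 15, 1 of the 6 non-member loci was coding. This was Gm5414 (chr15:101624028-101628252), with 9 exons of 507, 215, 61, 96, 165, 126, 221, 35 and 233 coding bases, of which the first 8 equalled those of Krt6a and Krt6b. The genes of this paragraph were picked after their values were seen.

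Krtap coding lengths are given by chromosome and family, the family being the first number in the symbol. The coding part had a median of 522 bases on chromosome 11, 264 on chromosome 16, 726 on chromosome 7 and 654 on chromosome 10. Families 6, 7, 8, 19, 20, 21 and 22, known for proteins rich in glycine and tyrosine, held 15 genes with a median of 237 coding bases (174 to 468), and the other families 41 genes with a median of 552 (261 to 1509). This grouping was made after the coding lengths were seen, and all 15 genes were on chromosome 16. The shortest coding part was that of Krtap6-3, 174 bases, and the longest those of Krtap16-1 with 1509 and Krtap5-2 with 1104. Within a family, lengths could be constant or variable. The 3 genes of family 3 held 297 to 300 coding bases and both genes of family 31 held 534, while family 9 ranged from 411 to 1077 bases (Krtap9-3, Krtap9-1 and Krtap9-5) and family 5 from 672 to 1104. The widest range under a shared number was that of 16, from 261 bases in Krtap16-3 on chromosome 16 to 1509 in Krtap16-1 on chromosome 11. Krtap16-3 lies between Krtap19-9b and Krtap22-2, of the glycine and tyrosine families, and its relation to Krtap16-1 was not tested. It also sets the low end, 261 bases, of the other families.

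Untranslated parts had lower medians in each class than in all coding genes. The median 5' untranslated length was 58 bases in type I, 68 in type II and 53 in Krtap genes, against 136 for all coding genes. The median 3' untranslated length was 305, 466 and 296 bases in that order, against 685. No annotated 3' untranslated part was present in 6 of 56 Krtap genes (Krtap4-8, Krtap9-1, Krtap9-5, Krtap29-1, Krtap27-1 and Krtap5-1). Krtap4-8 had no 5' part either, so the row starts at its start codon. Among all 20992 coding genes, 1462 had no 3' part and 1442 no 5' part, so such rows are not particular to Krtap genes. The longest 3' untranslated parts were those of Krt222 with 2158 bases, Krt39 with 1664 and Krt80 with 1600.

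Few members shared bases with another gene. This was so for 5 of 110, against 19.2% of the loci of all coding genes. The members are also shorter, with a median span of 1771.5 bases against 16278, and genes of like length were not compared. Krtap12-1, Krtap10-4 and Krtap10-10 lay inside introns of Tspear (chr10:77686569-77886769), a gene of 200201 bases, with 0 exon bases shared. Krt12, the corneal keratin, shared 5017 bases with the non-coding gene A830036E02Rik on the opposite strand, 997 of them in exons of both. Krt80 contained the microRNA gene Mir1941 on the opposite strand. Krt12 was therefore the only member with shared exon bases. Signal over the shared intervals cannot be assigned to 1 gene from the annotation alone.

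Promoter sequence was compared by the TATA motif, which is bound by the TATA-binding protein a few helical turns upstream of the start of some genes. RefSeq windows (GRCm38.p6) of 250 bases before to 50 after the start were given for 87 of the 110 members, in 88 windows, and 86 of these were set on the start of the row used here (within 50 bases). The exceptions were the Krt14 window, 1480 bases away, and a second Krt13 window, 989 bases away, and neither held the motif described next. The letters TATAAA on the gene's strand, 40 to 20 bases before the start, were found in 44 of 88 windows (50%), against 1.91% of all 32851 windows. It was also found in 3 of 7 windows of the keratin filament partners (42.9%) and in 2 of 13 windows of other intermediate filament genes (15.4%). By class these were 31 of 51 Krtap windows, 10 of 21 type I windows and 3 of 15 type II windows, and the Krt18 window had none. Within Krtap genes they were 17 of 21 windows on chromosome 11, 10 of 23 on chromosome 16 and 3 of 5 on chromosome 7. The first base of the motif lay at -30 in the median, between -40 and -26. Among the lists, 5 of 7 inner root sheath windows had it, 4 of 9 hair shaft windows, 2 of 5 mucosal and corneal windows, 1 of 4 suprabasal windows, 1 of 5 simple epithelial windows, 0 of 2 basal windows and 0 of 1 window of the stress and appendage list. The basal count includes the Krt14 window and the mucosal count the second Krt13 window, so that 0 of 1 and 2 of 4 remain without them.

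**Figure D4:**
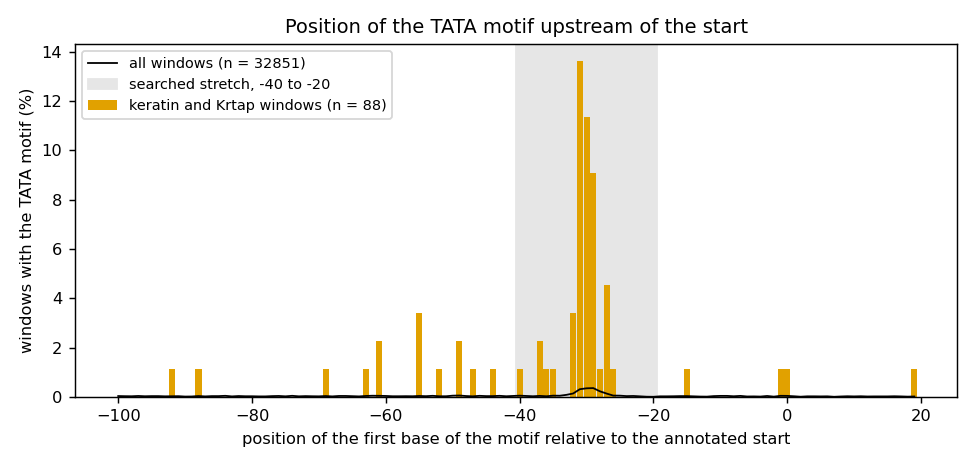
Share of windows (%) in which the TATAAA motif begins at each position relative to the annotated start, for the 88 keratin and Krtap windows (bars) and all 32851 windows (line), with the searched stretch shaded. Bars within the shaded stretch gather around -30, where the line has its own small maximum.

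The 30 bases from -40 to -11 are printed for chosen genes of each class, to show the motif's place, with TATAAA in capitals on the gene's strand. Krt5, Krt2, Krtap3-3 and Krt18 are printed as windows without it. The lines do not reflect the shares given above, since most have the motif and none is from chromosome 16. The hair matrix genes of chromosome 11 come first, then inner root sheath and hair shaft keratins, then keratins of other epithelia.
Krtap4-1 (chr11:99628250-99628279, minus): tcagcgaggTATAAAagggggcgtggggca
Krtap31-1 (chr11:99907880-99907909, plus): aggcctgttgTATAAAaggccctgactgga
Krtap31-2 (chr11:99936251-99936280, plus): aggcctgttgTATAAAaggccctgactgga
Krtap3-3 (chr11:99550874-99550903, minus): gagagggtatataagaaccccagagcaaga
Krt25 (chr11:99322962-99322991, minus): gagaatcgtcTATAAAagggcaaacaaaac
Krt26 (chr11:99337976-99338005, minus): gattgaatccTATAAAagccggtgaagttg
Krt28 (chr11:99374914-99374943, minus): cacaaccgtgTATAAAagctcaaagaaccc
Krt73 (chr15:101802371-101802400, minus): tcttgagctcTATAAAggggaagaccaaga
Krt34 (chr11:100041565-100041594, minus): tggtatgggTATAAAaagaccacgaaggaa
Krt10 (chr11:99389375-99389404, minus): acgccctctcagtaTATAAAggctcggcac
Krt5 (chr15:101712916-101712945, minus): cttctaaggggataaaaggggacctcaaat
Krt2 (chr15:101818180-101818209, minus): tagttggcaggtatataagggaccctgtga
Krt18 (chr15:102028176-102028205, plus): ccctacctcctcccgcggcgatataacaac

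The inner root sheath genes Krt25, Krt26, Krt28 and Krt73 had the motif at the same distance, -30. Krt71 had it at -40, the edge of the searched stretch, Krt27 had it outside, at -15, and Krt72 had none in it. The windows of Krtap31-1 and Krtap31-2, which lie 27400 bases apart, were identical over the 30 bases and matched at 247 of 300 positions (82.3%) over the whole window. That was the only pair of members at or above 80% without gaps among 3827 pairs, whose median was 26.3%.

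Several windows without TATAAA held related letters, as the lines for Krt5, Krt2 and Krtap3-3 show. With the shorter motifs TATAA and ATAAA, which overlap TATAAA and were chosen after the windows were seen, the counts were 53 of 88 (60.2%, against 3.38% of all windows) and 51 of 88 (58.0%, against 3.89%). Other windows held none of these motifs in the searched stretch, such as those of Krt7, Krt8, Krt36 and Krtap19-1, which are not printed. The Krt18 line also had none there, but TATAA begins in it just past that stretch. Type II had 3 of 15 with TATAAA, 4 with TATAA and 8 with ATAAA, type I had 10, 13 and 12 of 21 in that order, and Krtap genes had 31, 36 and 31 of 51. Krt8 had TATAAA outside the searched stretch, beginning 1 base before the annotated start. Over the whole window and both strands, TATAAA was found in 61 of 88 windows (69.3%) against 13.6%. GCCNNNGGC, the palindromic motif of the AP-2 factors, known from epidermal promoters, was found on both strands in 8 of 88 windows (9.1%) against 16.6%. It was in 3 of 21 type I, 3 of 15 type II and 1 of 51 Krtap windows, and in that of Krt18. A match is a run of letters and no evidence of binding, and the windows depend on the annotated start.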

How the data were processed

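Pol I CUT&Tag libraries of C64 mouse embryonic stem cells (2 control, 2 auxin) make up the series. The table analysed is its annotation of 50727 rows in 12-column BED layout, without header. Its BED score, as deposited by the authors, was 0 in every row and measures nothing. The submitters' processing notes name mm10 as genome build, and FastQC, Bowtie2, deepTools and bedtools as tools, with versions not given in the sources used here. How the annotation was made is not given in the sources used here.

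Rows of a symbol that share a base and strand were merged into a locus. Each gene was described by the row with the longest coding part, then the largest exon sum, then the lowest start. Starts were converted to count from 1. Coding length is the exon sequence between coding start and end, with the stop codon. Loci at most 500 kb apart were joined into groups. Genes named are those of the keratin lists, the extremes and departures of each class, and others said to be picked later. The members and lists were chosen with earlier results of these data known. The coding, overlap and intron routines were tested on simulated data. Symbols were matched to RefSeq (GRCm38.p6), with 110 of 110 found. No window was given for Krtap12-1, Krtap10-10, Krt222, Krtap1-3, Krtap9-1, Krt33a, Krt35, Krt15, Krt19, Krt16, Krt17, Krt80, Krt87, Krt88, Krt81, Krt86, Krt83, Krt6b, Krt6a, Krt74, Krt1, Krt4 and Krtap7-1. Python 3.11.15, pandas 2.3.3, numpy 2.4.6 and matplotlib 3.10.9 were used. Alternatives concerned the row used, the class of Krt18, the distance that ends a group, the overlap rule and the motif window.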

Additional observations from a re-analysis of the deposited data

How the results depend on the processing

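No paired analysis was possible because only annotation coordinates were analysed and no test was made, and settings for Pol I occupancy and for cysteine content (protein sequences were not used here) were not run. The count of 6 groups became 11 when neighbours had to lie within 100 kb, stayed at 6 with 1 Mb, and was 7 when a non-member coding gene of several exons also ended a group, an alternative chosen after seeing the data. The 5 members that share bases with another gene became 2 on the same strand and 1 for exons only. The most frequent list of all internal coding exon sizes covered 9 of 27 type I and 12 of 26 type II genes. Restricting it to coding exons 2 to 5 and 3 to 7, chosen after seeing the data, covered 25 and 24. The other medians and counts moved by less than the spread between genes of the class or less than 1.5 times. Promoter values depend on the annotated starts, and 23 members had no window.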
